A study of Homo sapiens with 6 samples.

Results

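The genes described here are 34 genes of cholesterol and fatty acid metabolism, taken as the rows of the count table whose identifier carries the GENCODE symbol of a listed gene. All 34 were found among the 58676 gene identifiers, and all 34 were among the 19072 genes with enough counts to be tested. They comprise 17 enzymes of sterol synthesis, 1 sterol transporter (*STARD4*), 5 genes of the SREBP sensing system, 7 genes of fatty acid synthesis and desaturation, and 4 genes of LXR signaling and cholesterol efflux. MRC5 cells, an established line of human lung fibroblasts, were kept for 24 h in conditioned media (CM) from ATII ER:KRASV12 cells, a human alveolar type II epithelial line carrying a RAS fusion protein that 4-hydroxytamoxifen (4-OHT) switches on. There were 3 libraries with CM of control epithelial cells (control ATII CM) and 3 with CM of cells given 4-OHT (4-OHT ATII CM). All 6 libraries share the fibroblast line, the serum-containing medium of its routine culture, the 24 h exposure and the source epithelial line. Whether serum was present during the exposure is not stated in the study's methods. The comparison asks how fibroblasts respond to signals from RAS-activated epithelium. Both lines are single cell lines, and the design cannot tell apart the response to RAS activation and that to any 4-OHT carried over in the medium. The labels do not say whether the 3 libraries of a group came from separate cultures, so the p values measure the spread between these libraries, which may be technical.

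Cells make cholesterol from acetyl-CoA through mevalonate and squalene, and make fatty acids from the same acetyl-CoA through malonyl-CoA, followed by elongation and desaturation. Both routes are under the SREBP transcription factors, which SCAP escorts from the endoplasmic reticulum to the Golgi for activation when sterols are low and which the INSIG proteins hold back when sterols are high. SREBP-2, from *SREBF2*, is known mainly as the activator of sterol synthesis and SREBP-1, from *SREBF1*, mainly as that of fatty acid synthesis, while LXR is a nuclear receptor for oxysterols that acts with RXR on efflux genes, on *MYLIP*, and on *SREBF1* and lipogenic genes. In lung, fibroblasts that store lipid droplets are known as lipofibroblasts and lie next to alveolar type II cells, which use fatty acids to make surfactant.

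The 6 libraries held between 17691849 and 26389449 counts each (median 22273931), and the square root of the common dispersion was 4.36%. In edgeR, 1090 of the 19072 genes tested (5.72%) were differentially expressed genes (DEGs) at an adjusted p below 0.05, of which 563 (2.95%) were upregulated and 527 (2.76%) downregulated in 4-OHT ATII CM, and the median log2 fold change over all genes was -0.002. The shallowest library, control replicate 2, lay apart from the other libraries on the second principal component, and values without it are given beside several results. Over 9691 genes its deviations followed GC content (Spearman 0.25) and exon length (-0.31), while those of the other 5 libraries gave -0.21 to 0.09 for GC content and -0.05 to 0.29 for length. All 10 fibroblast markers were detected, with a summed level of 41046 to 44654 CPM, which are counts set relative to the normalized total of the library. Of these 10, 4 rose (*DCN*, *LUM*, *PDGFRA* and *COL3A1*, by 0.33, 0.29, 0.22 and 0.18 on the log2 scale) and *VIM* fell by 0.10, beside 5.72% of all genes called. Of 13 epithelial markers, 6 were tested and the alveolar markers *SFTPA1* and *NKX2-1* were at 0 counts. The summed level of the 6 was 93.0 to 99.4 CPM in control and 91.3 to 96.9 CPM in 4-OHT ATII CM. Most of it was *KRT18* (means of 53.5 CPM in control and 51.8 CPM in 4-OHT ATII CM) and *KRT8* (32.5 and 33.7 CPM). *EPCAM* was at 0.378 and 0.344 CPM. Of 8 immune and endothelial markers, 3 were tested, with summed levels of 0.94 to 1.62 CPM in control and 1.28 to 2.40 CPM in 4-OHT ATII CM, and *PECAM1* and *CDH5* were at 0 counts. The monocyte marker *CD14* was at 0.562 to 0.896 CPM in control and 1.05 to 1.86 CPM in 4-OHT ATII CM, a log2 difference of 0.97 that did not pass the test (adjusted p = 0.0597). The part of the marker differences in the results was not tested. In these bulk libraries, fewer cells expressing a gene and less RNA per cell cannot be told apart.

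Of the 34 genes, 4 were downregulated in 4-OHT ATII CM and 0 were upregulated, where 2.76% and 2.95% of all genes tested were called in each direction. The 4 were *FASN* and *SCD* of fatty acid synthesis and *SREBF1* and *INSIG1* of the SREBP system. None of the 17 sterol synthesis enzymes, of the 4 LXR and efflux genes, or *STARD4* passed the test. Over the 34 genes the median log2 fold change was -0.08, with 9 genes above 0 and 25 below, beside 49.5% of all genes above 0. The groups did not overlap for 8 genes that were lower and 2 that were higher in 4-OHT ATII CM, where the shares over all genes were 10.4% and 11.7%. Fold changes were small throughout, from -0.40 to 0.19 on the log2 scale.

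**Figure D1:**
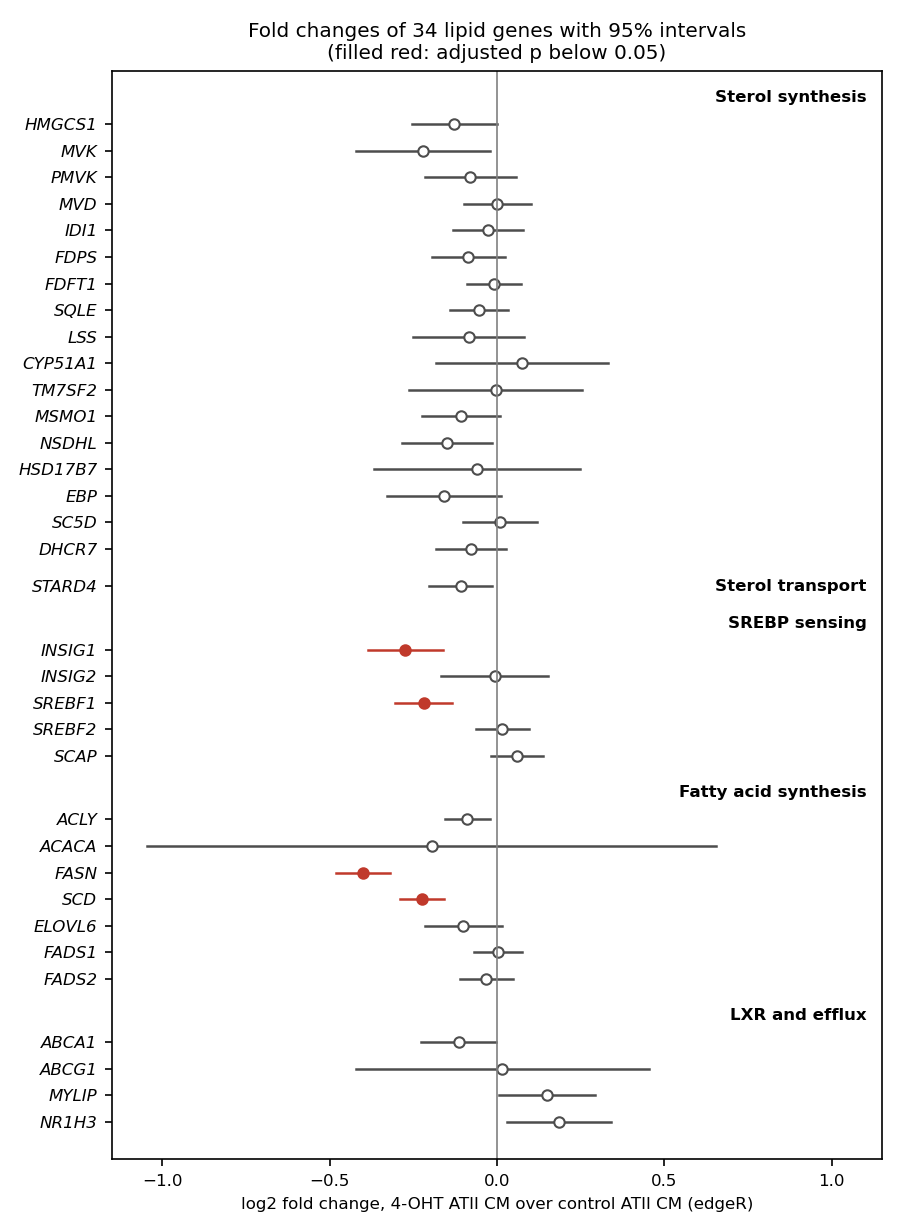
Log2 fold change of each of the 34 genes (4-OHT ATII CM over control ATII CM, horizontal axis) with its 95% interval from edgeR, grouped by role. Filled red points mark the 4 genes with an adjusted p below 0.05, *INSIG1*, *SREBF1*, *FASN* and *SCD*, all left of 0, and the widest interval is that of *ACACA*.

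In the SREBP system, 2 of 5 genes passed the test, both lower, where 2.76% of all genes were lower, and they were 1 of each pair of paralogues. *SREBF1* (chr17:17810399-17837002, minus strand), the gene of SREBP-1, measured 101.6, 102.9 and 101.6 CPM in the control libraries and 83.2, 90.1 and 89.5 CPM in 4-OHT ATII CM. The groups did not overlap, and *SREBF1* fell by 0.22 ± 0.04 (SE) on the log2 scale (adjusted p = 0.00351). *SREBF2*, the gene of SREBP-2, measured 147.6, 157.3 and 151.7 CPM in control and 158.0, 150.1 and 153.5 CPM in 4-OHT ATII CM. Its libraries interleaved, with a log2 fold change of 0.02, a 95% interval of -0.06 to 0.10 and an adjusted p of 0.891. Within each library the ratio of *SREBF1* to *SREBF2* was 0.689, 0.654 and 0.670 in control and 0.526, 0.601 and 0.583 in 4-OHT ATII CM, a difference of -0.24 on the log2 scale. Counts per gene do not separate the SREBP-1a and SREBP-1c transcripts of *SREBF1*, and 6.92% of its exonic bases overlap *RAI1* on the opposite strand.

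*INSIG1* (chr7:155297776-155310235, plus strand), the sterol-induced retention protein and itself an SREBP target, measured 51.3, 59.2 and 52.0 CPM in control and 45.7, 43.9 and 44.6 CPM in 4-OHT ATII CM. All 3 libraries in 4-OHT ATII CM were below all 3 controls, control replicate 2 being the highest, and *INSIG1* fell by 0.27 ± 0.05 (SE) on the log2 scale (adjusted p = 0.00497). Without control replicate 2 it fell by 0.21 (adjusted p = 0.00432). Its paralogue *INSIG2* measured 16.9, 19.04 and 16.4 CPM in control and 18.3, 16.8 and 17.0 CPM in 4-OHT ATII CM, which overlap, with a log2 fold change of -0.01 and a 95% interval of -0.17 to 0.15. The ratio of *INSIG1* to *INSIG2* was 3.03, 3.11 and 3.18 in control and 2.50, 2.62 and 2.63 in 4-OHT ATII CM, a difference of -0.27 on the log2 scale. *SCAP*, the sterol-sensing escort, measured 69.7, 68.6 and 68.3 CPM in control and 71.4, 71.6 and 72.3 CPM in 4-OHT ATII CM. The groups of *SCAP* did not overlap, but its log2 difference of 0.06 did not pass the test (adjusted p = 0.447).

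For 3 against 3 libraries the exact two-sided permutation test of a ratio cannot go below p = 0.1. The ratios of both pairs reached that value, 0.125 after Benjamini-Hochberg adjustment over the 5 ratios compared. Of the 5, *SCD* to *SCD5* and *ELOVL6* to *ELOVL5*, described below, were chosen after their values were seen, which can lower the adjusted value.

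**Figure D2:**
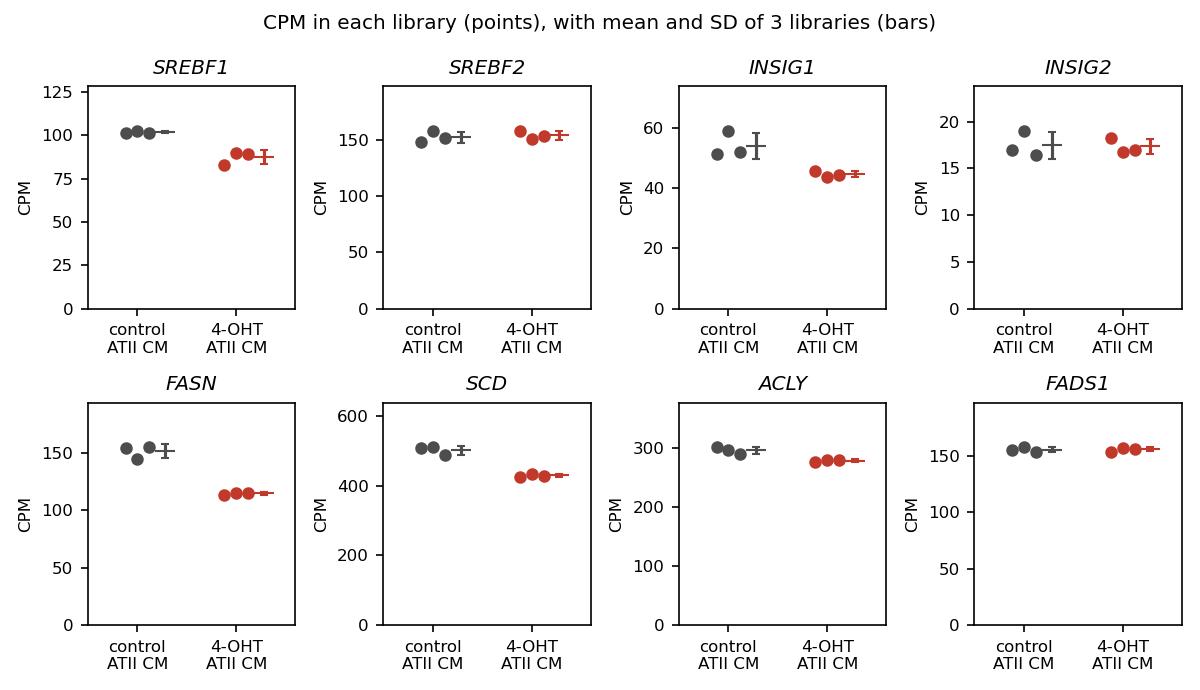
CPM of 8 genes in each library (points, vertical axis from 0), with the mean and SD of the 3 libraries beside them, control ATII CM in grey and 4-OHT ATII CM in red. *SREBF1*, *INSIG1*, *FASN* and *SCD* have all red points below all grey points, *SREBF2*, *INSIG2* and *FADS1* overlap, and *ACLY* does not overlap but missed the threshold.

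In fatty acid synthesis, 2 of 7 genes fell, the synthase and the main desaturase, where 2.76% of all genes fell. Over the 7 genes the median on the log2 scale was -0.10 (-0.16 without control replicate 3), with 1 gene above 0 and 6 below. *FASN* (chr17:82078333-82098332, minus strand), which builds palmitate from acetyl-CoA and malonyl-CoA, measured 154.5, 144.6 and 155.1 CPM in control and 113.5, 115.4 and 115.3 CPM in 4-OHT ATII CM. The 3 values in 4-OHT ATII CM lay within a narrow range well below the lowest control, and *FASN* fell by 0.40 ± 0.04 (SE) on the log2 scale, with a 95% interval of -0.48 to -0.32 and an adjusted p of 1.74e-05. *SCD* (chr10:100347124-100364834, plus strand), the desaturase that turns stearate into oleate, measured 507.1, 511.1 and 487.6 CPM in control and 425.1, 434.8 and 428.8 CPM in 4-OHT ATII CM. The groups of *SCD* did not overlap, and it fell by 0.22 ± 0.03 (SE) on the log2 scale (adjusted p = 0.000366). In CPM per kilobase of exon *SCD* had the highest level of the 34 genes, 93.6 in control and 80.1 in 4-OHT ATII CM.

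The other 5 genes of fatty acid synthesis did not pass the test. *ACLY*, which makes cytosolic acetyl-CoA from citrate for both routes, measured 302.4, 297.4 and 290.9 CPM in control and 276.5, 280.3 and 280.8 CPM in 4-OHT ATII CM. The groups of *ACLY* did not overlap, and its log2 fold change was -0.09 (95% interval -0.16 to -0.02, adjusted p = 0.137). *ELOVL6*, which elongates palmitate, ranged from 34.5 to 39.6 CPM in control and from 34.3 to 35.0 CPM in 4-OHT ATII CM, with a log2 fold change of -0.10 (adjusted p = 0.372), which was -0.05 without control replicate 1 and -0.16 without control replicate 3. The polyunsaturated desaturases *FADS1* and *FADS2*, which share 490 bases of exon on opposite strands, had log2 fold changes of 0.003 and -0.03. Their 95% intervals were -0.07 to 0.07 and -0.11 to 0.05. The value of *FADS2* was 0.01 without control replicate 2 and -0.07 without control replicate 3. *ACACA*, the carboxylase that makes malonyl-CoA, had only 411 counts over the 6 libraries and ranged from 1.7 to 5.9 CPM in control and from 1.1 to 4.0 CPM in 4-OHT ATII CM. The spread between its libraries gave an interval of -1.04 to 0.65, wide enough to hold a change of the size seen in *FASN* in either direction, leaving out 1 library gave log2 fold changes of -0.53 to 0.44, and a copy of its transcript lies on an alternate contig, where reads can be shared.

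Stretches of promoter are shown for genes the results turn on, to let their elements be compared: 3 of the downregulated genes, *SREBF2* as the partner of *SREBF1* that did not pass the test, and *NSDHL* as a sterol synthesis enzyme with many CCAAT letters. Each stretch is the RefSeq GRCh38.p14 sequence of the gene's strand, 5′ to 3′, from 250 bases before the RefSeq start to the last base before the first exon of the table, and capitals mark CCAAT, or ATTGG where it lies on the other strand, and the sterol regulatory element TCACNCCAC.
SREBF1 (chr17:17837003-17837236, minus strand): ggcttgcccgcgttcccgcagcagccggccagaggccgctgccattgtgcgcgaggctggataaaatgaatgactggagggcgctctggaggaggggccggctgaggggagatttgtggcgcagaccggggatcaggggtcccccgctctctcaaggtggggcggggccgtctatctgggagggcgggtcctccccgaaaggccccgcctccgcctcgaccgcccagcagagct
INSIG1 (chr7:155297628-155297775, plus strand): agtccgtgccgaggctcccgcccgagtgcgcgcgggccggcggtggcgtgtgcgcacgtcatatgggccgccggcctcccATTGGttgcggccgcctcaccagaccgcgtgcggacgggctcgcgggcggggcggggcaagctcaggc
SCD (chr10:100346983-100347123, plus strand): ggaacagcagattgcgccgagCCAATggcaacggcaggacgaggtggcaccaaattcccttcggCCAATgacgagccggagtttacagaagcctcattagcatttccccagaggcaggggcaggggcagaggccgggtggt
SREBF2 (chr22:41832855-41833078, plus strand): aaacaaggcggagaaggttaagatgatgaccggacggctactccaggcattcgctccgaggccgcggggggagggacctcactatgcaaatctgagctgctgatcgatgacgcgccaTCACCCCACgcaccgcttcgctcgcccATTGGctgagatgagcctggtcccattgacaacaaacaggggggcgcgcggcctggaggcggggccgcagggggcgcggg
NSDHL (chrX:152830813-152830966, plus strand): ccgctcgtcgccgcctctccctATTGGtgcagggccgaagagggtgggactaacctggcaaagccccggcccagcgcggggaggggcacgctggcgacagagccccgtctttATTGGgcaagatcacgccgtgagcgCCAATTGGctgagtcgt

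RefSeq windows from 250 bases before to 50 bases after the start were matched for 30 of the 34 genes (all but *FDFT1*, *SQLE*, *FASN* and *ABCG1*) and searched on both strands. CCAAT, the letters bound by NF-Y, a factor known to act with SREBP, was in the windows of 22 of the 30 genes, in 13 of 15 sterol synthesis enzymes and in 39.7% of all genes with a window (34.6% of all 35116 windows). Of the printed genes, *SCD* had it at 229 and 186 bases before the start and *INSIG1* at 170, *NSDHL* had 5 matches in its window, 4 of them in the printed stretch, where CCAATTGG counts once on each strand, and the window of *SREBF1* had none. TCACNCCAC was found in 1 of the 30 genes, *SREBF2*, at 133 bases before the start, and in 1.39% of all genes. The GC box GGGCGG was in 29 of 30 genes (48.3% of all genes) and the E box CACGTG in 5 of 30 (8.77%). The LXR element DR4, a direct repeat of AGGTCA, and its looser form, a direct repeat of GGTCA that takes in every match of the first, were in no window of the 30 genes and in 7 and 19 of all windows. A gene with several windows had more chances to hold a match, and a missing match says only that these letters are not in the window. The stretch of *SREBF2* also covers exonic bases of the antisense gene *SREBF2-AS1*.

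In sterol synthesis, 0 of 17 enzymes passed the test, against 5.72% of all genes, and 3 were below an unadjusted p of 0.05 (*HMGCS1*, *MVK* and *NSDHL*, all lower in 4-OHT ATII CM), where 17.3% of all genes were. DESeq2 and limma-voom also called 0 of the 17. The median log2 fold change was -0.08, with 3 enzymes above 0 and 14 below, and it was -0.04 without control replicate 2, -0.05 without 4-OHT replicate 2 and -0.12 without control replicate 3. The 95% intervals of 12 of the 17 lay within a 1.2-fold change in either direction, and over all 17 the interval ends ran from -0.42 for *MVK* to 0.33 for *CYP51A1*. Summed over the 17 enzymes, the level was 534.8, 556.6 and 534.9 CPM in control and 519.1, 516.5 and 524.2 CPM in 4-OHT ATII CM, a change of -4.08%.

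*HMGCS1*, which makes HMG-CoA, measured 29.5, 29.4 and 27.2 CPM in control and 25.6, 25.3 and 27.8 CPM in 4-OHT ATII CM, overlapping through 4-OHT replicate 3, with a log2 fold change of -0.13 (adjusted p = 0.284). *MVK*, mevalonate kinase, measured 12.7, 14.4 and 11.8 CPM in control and 11.01, 10.1 and 12.1 CPM in 4-OHT ATII CM, also overlapping, with the lowest log2 fold change of the enzymes, -0.22 ± 0.09 (SE, adjusted p = 0.227), and -0.14 without control replicate 2. *PMVK*, the next kinase, had a log2 fold change of -0.08 (-0.12 without 4-OHT replicate 1 and -0.04 without 4-OHT replicate 3), and *MVD*, the decarboxylase, had 0.0005 with a 95% interval of -0.10 to 0.10. *IDI1*, the isomerase of the activated isoprenes, and *FDPS*, which joins them into farnesyl diphosphate, had log2 fold changes of -0.03 and -0.09. The value of *IDI1* was 0.006 without 4-OHT replicate 2 and -0.04 without 4-OHT replicate 1. The value of *FDPS* was -0.04 without control replicate 2 and -0.13 without control replicate 3. For *FDPS*, 18.6% of the exonic bases overlap the antisense *RUSC1-AS1*.

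The next steps run through squalene, and none of their 3 enzymes had groups that did not overlap. *FDFT1*, squalene synthase, ranged from 83.7 to 87.5 CPM in control and from 83.6 to 87.4 CPM in 4-OHT ATII CM, and its log2 fold change was -0.01 with an interval of -0.09 to 0.07. *SQLE*, squalene epoxidase and a rate-limiting enzyme of the route, measured 54.1, 54.6 and 56.0 CPM in control and 52.8, 51.5 and 54.4 CPM in 4-OHT ATII CM. Its groups overlapped by a small margin, with a log2 fold change of -0.05 (adjusted p = 0.574), and -0.03 without 4-OHT replicate 2. *LSS*, which closes squalene epoxide into lanosterol, had a log2 fold change of -0.08, which was 0.01 without control replicate 1, -0.14 without control replicate 3 and -0.05 without 4-OHT replicate 2, and an identical copy on an alternate contig.

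Among the enzymes that turn lanosterol into cholesterol, *NSDHL* and *EBP* were the 2 of the 17 whose groups did not overlap, both lower, close to the 10.4% of all genes. *NSDHL*, a sterol dehydrogenase of the demethylation complex, measured 21.6, 23.1 and 22.7 CPM in control and 21.1, 19.5 and 20.2 CPM in 4-OHT ATII CM (log2 fold change -0.15, adjusted p = 0.222). *EBP*, the sterol isomerase, measured 13.2, 14.8 and 13.2 CPM in control and 12.8, 11.7 and 12.3 CPM in 4-OHT ATII CM (log2 fold change -0.16, adjusted p = 0.332). Neither difference passed the test, and the value of *EBP* is uncertain, since another identifier carries a transcript identical to 83.9% of it. *MSMO1*, the methyl oxidase of the same complex, and *DHCR7*, the last reductase, had log2 fold changes of -0.11 and -0.08, each with its highest value in control replicate 2, and without that library the values were -0.05 and -0.02. Without control replicate 3 that of *DHCR7* was -0.12. *SC5D*, a desaturase, had 0.01, and *TM7SF2*, a sterol reductase, had -0.004, and leaving out 1 library gave -0.03 to 0.05 and -0.12 to 0.07. *CYP51A1*, the lanosterol demethylase, and *HSD17B7*, a ketoreductase, had 0.07 and -0.06, and leaving out 1 library gave 0.01 to 0.19 and -0.17 to 0.04. These last values are uncertain, because 79.4% of the exonic bases of *CYP51A1* overlap a second identifier on the same strand and both genes have near-identical pseudogene copies.

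*STARD4*, which carries cholesterol between membranes, measured 44.8, 44.2 and 46.0 CPM in control and 42.8, 40.5 and 42.2 CPM in 4-OHT ATII CM. The groups did not overlap, yet its log2 fold change of -0.11 ± 0.04 (SE) did not pass the test (adjusted p = 0.199). It passed in 1 of 16 alternative analyses, with an offset for GC content and length (log2 fold change -0.14, adjusted p = 0.0450).

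Of the 4 LXR and efflux genes, 0 passed the test, against 5.72% of all genes, and 3 were below an unadjusted p of 0.05 (17.3% of all genes), *ABCA1* lower and *MYLIP* and *NR1H3* higher. DESeq2 and limma-voom also called 0 of the 4. *ABCA1*, the transporter that loads cholesterol onto apolipoproteins, measured 51.9, 45.2 and 52.6 CPM in control and 46.0, 47.1 and 45.6 CPM in 4-OHT ATII CM. Control replicate 2 was its lowest library, below the 3 in 4-OHT ATII CM, and the log2 fold change of -0.11 (adjusted p = 0.279) became -0.18 (adjusted p = 0.0131) without that library. *ABCG1*, the second efflux transporter, had 274 counts in all, with 1.6 to 2.3 CPM in both groups and a 95% interval of -0.42 to 0.45.

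*MYLIP*, a ubiquitin ligase that targets lipoprotein receptors and a known LXR target, measured 15.4, 14.7 and 15.5 CPM in control and 16.9, 16.8 and 17.0 CPM in 4-OHT ATII CM. All 3 libraries in 4-OHT ATII CM were above the controls, with a log2 fold change of 0.15 ± 0.07 (SE) and an adjusted p of 0.265. *NR1H3*, the gene of LXR-alpha, measured 18.5, 20.6 and 18.97 CPM in control and 21.6, 23.9 and 20.5 CPM in 4-OHT ATII CM, overlapping through 1 library of each group, with a log2 fold change of 0.19 ± 0.07 (SE, adjusted p = 0.183), and 0.12 without 4-OHT replicate 2 (adjusted p = 0.516). The median of the 4 genes was 0.08 on the log2 scale, 0.01 without control replicate 2 or without 4-OHT replicate 2, 0.14 without control replicate 3 and 0.15 without 4-OHT replicate 1.

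In CPM per kilobase of exon over all 6 libraries, *SCD* (86.9), *ACLY* (55.2) and *FADS2* (34.5) were the highest of the 34 genes, followed by *SREBF2* (20.2). *HSD17B7* (0.949), *ABCG1* (0.328) and *ACACA* (0.239) were the lowest. The levels of *ACACA* and *HSD17B7* are uncertain and may be too low, since reads can be shared with or lost to the copies named above. The median level was 15.2 for fatty acid synthesis, 11.8 for the SREBP system, 8.04 for sterol synthesis and 4.40 for LXR and efflux, beside 1.96 for all genes tested. The summed level of the 34 genes was 2599 ± 50.4 CPM in control and 2417 ± 9.65 CPM in 4-OHT ATII CM (each ± SD, n = 3), a change of -7.01%. *FASN* and *SCD* together made up 59.9% of that difference, and the 17 sterol synthesis enzymes 12.1%. Summed levels changed by -9.02% for fatty acid synthesis and -4.92% for the SREBP system. A sum over genes is ruled by its most abundant members and is given as a description.

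**Figure D3:**
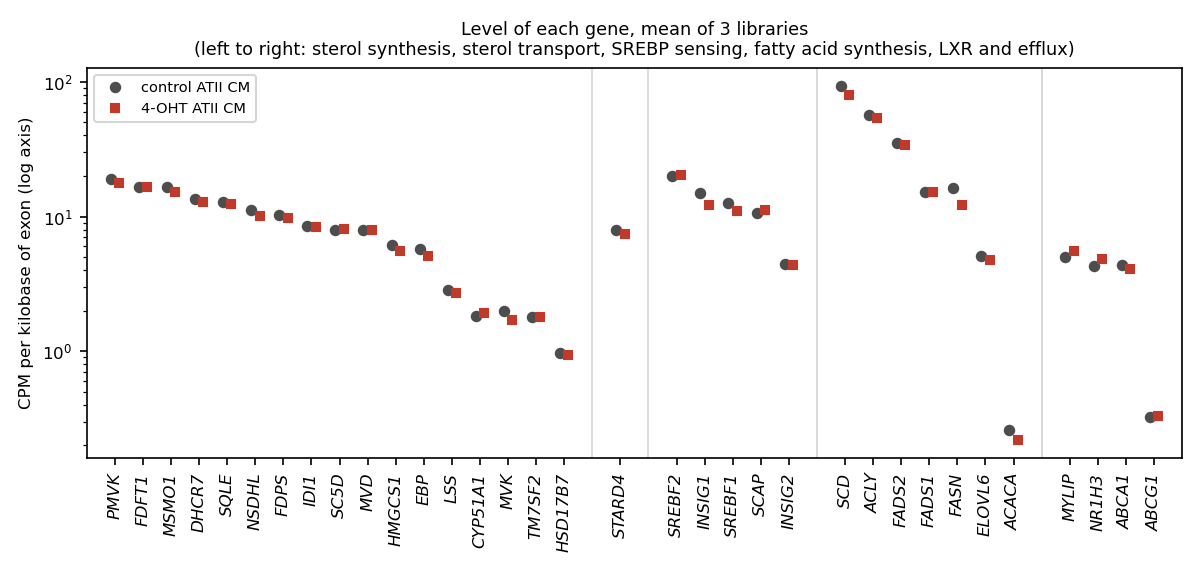
Mean level of each of the 34 genes in control ATII CM (grey circles) and 4-OHT ATII CM (red squares), in CPM per kilobase of exon on a log axis, in order of level within each role. The means span from 0.218 for *ACACA* in 4-OHT ATII CM, a level made uncertain by a copy of its transcript, to 93.6 for *SCD* in control. Circle and square stand apart for *FASN*, *INSIG1*, *SCD* and *SREBF1*, among others.

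Beyond the 34 genes, 104 other genes of the same pathways were listed, of which 97 were tested, and 7 were upregulated and 1 downregulated, beside 2.95% and 2.76% of all genes. Their median log2 fold change was 0.03. In sterol supply, 1 of 19 tested genes rose and 1 fell. *ACAT2*, which makes the acetoacetyl-CoA that enters sterol synthesis, measured 28.9, 30.8 and 28.0 CPM in control and 25.2, 25.5 and 23.4 CPM in 4-OHT ATII CM, which did not overlap, and fell by 0.24 ± 0.06 (SE) on the log2 scale (adjusted p = 0.0245). This call held in 10 of 16 alternatives and was lost with thinning (adjusted p = 0.0799) and without any 1 library but control replicate 3 (0.0520 to 0.139). *FAXDC2*, of the fatty acid hydroxylase family, rose from 19.1, 20.3 and 20.6 CPM to 24.2, 24.9 and 24.2 CPM, a log2 fold change of 0.29 (adjusted p = 0.00836, and 0.0542 without 4-OHT replicate 2). None of the 15 other genes of SREBP control, which include the proteases *MBTPS1* and *MBTPS2* that cleave SREBP, passed the test, and 5 were below an unadjusted p of 0.05, beside 17.3% of all genes.

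In fatty acid synthesis beyond the 7 genes, 2 of 26 tested genes rose, beside 2.95% of all genes, and 0 fell, and each of the 2 has a relative among the 7 genes. *SCD5*, the second stearoyl-CoA desaturase, measured 28.8, 28.9 and 28.1 CPM in control and 33.4, 32.8 and 32.6 CPM in 4-OHT ATII CM, and rose by 0.21 ± 0.05 (SE) on the log2 scale (adjusted p = 0.0208). This call held in 10 of 16 alternatives and was lost with DESeq2 (adjusted p = 0.0657) and without any 1 library but control replicate 2 (0.0566 to 0.110). *ELOVL5*, which elongates polyunsaturated fatty acids, measured 130.6, 128.8 and 128.1 CPM in control and 146.0, 146.2 and 145.3 CPM in 4-OHT ATII CM, and rose by 0.18 ± 0.03 (SE) on the log2 scale (adjusted p = 0.00529). Neither gene's groups overlapped. The ratio of *SCD* to *SCD5* was 17.6, 17.7 and 17.4 in control and 12.7, 13.2 and 13.1 in 4-OHT ATII CM, a difference of -0.43 on the log2 scale. The ratio of *ELOVL6* to *ELOVL5* was 0.304, 0.292 and 0.269 in control and 0.240, 0.235 and 0.240 in 4-OHT ATII CM, a difference of -0.27. These 2 ratios were chosen after the values were seen, so the separation of their groups is a description and not a test. For *SCD* over *SCD5* it followed from the single genes, whose groups lay apart in opposite directions. The ratio of *FADS1* to *FADS2* overlapped between groups (exact permutation p = 0.5).

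**Figure D4:**
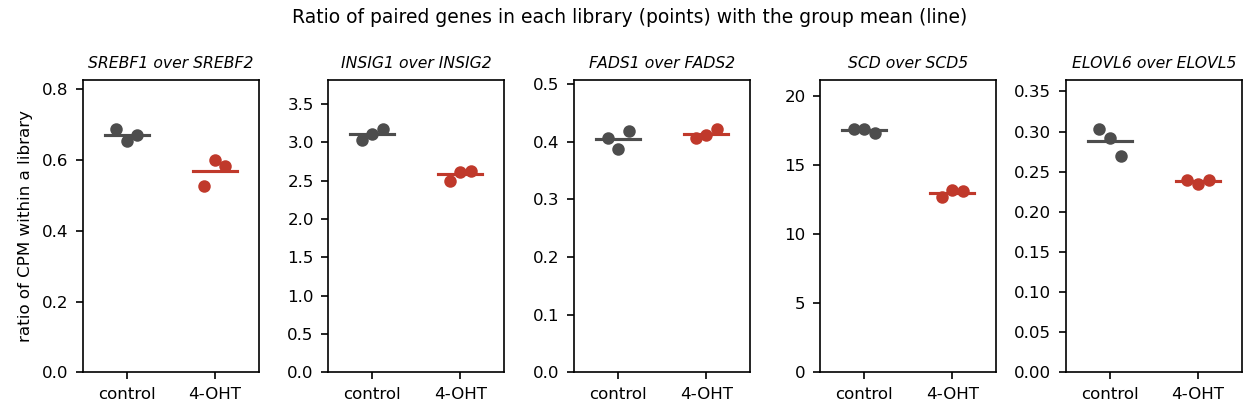
Ratio of CPM of paired genes within each library (points, vertical axis from 0) with the group mean (line), control ATII CM in grey and 4-OHT ATII CM in red. The ratio is lower in all 3 libraries in 4-OHT ATII CM for 4 pairs, and *FADS1* over *FADS2* overlaps.

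In the wider LXR and oxysterol list, 3 of 14 tested genes rose, beside 2.95% of all genes, and 0 fell, and its median log2 fold change was 0.18 (0.09 without 4-OHT replicate 2). *RXRA*, the partner of LXR and of other nuclear receptors, measured 106.0, 106.4 and 99.3 CPM in control and 120.6, 122.1 and 119.8 CPM in 4-OHT ATII CM, and rose by 0.22 ± 0.04 (SE) on the log2 scale (adjusted p = 0.00276). *SMPDL3A*, a phosphodiesterase known as an LXR target, rose by 0.24 (adjusted p = 0.00540), from 40.9, 37.2 and 39.7 CPM to 46.5, 46.1 and 46.6 CPM. *PLTP*, the phospholipid transfer protein, rose by 0.16 (adjusted p = 0.0173), from 80.5, 81.0 and 77.0 CPM to 87.4, 90.03 and 89.7 CPM, and this call was lost without control replicate 3, 4-OHT replicate 2 or 4-OHT replicate 3 (adjusted p = 0.0911 to 0.131). The groups did not overlap for any of the 3. The other genes tested in this list were not called, among them the transporters *ABCG4* (log2 fold change 0.43, adjusted p = 0.344) and *ABCA2* (0.04, 0.718). The efflux transporters *ABCA1* and *ABCG1*, described above and not in this list, were also not called.

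Of the 23 fatty acid oxidation genes tested, 1 passed the test, beside 5.72% of all genes. A log2 fold change above 0 was seen in 20, beside 49.5% of all genes, and the median was 0.11. *PDK4*, the kinase that turns pyruvate dehydrogenase off when fatty acids are oxidized, measured 1.5, 1.9 and 1.7 CPM in control and 3.3, 2.2 and 3.2 CPM in 4-OHT ATII CM, a rise of 0.76 ± 0.20 (SE) on the log2 scale (adjusted p = 0.0393). It had 315 counts in all, and its call held in 8 of 16 alternative analyses. It was lost without replicate 1 or 3 of either group (adjusted p = 0.114 to 0.154), with DESeq2 and limma-voom (adjusted p = 0.0620 for each), with thinning (adjusted p = 0.0769) and with the replicate block (adjusted p = 0.0520).

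**Figure D5:**
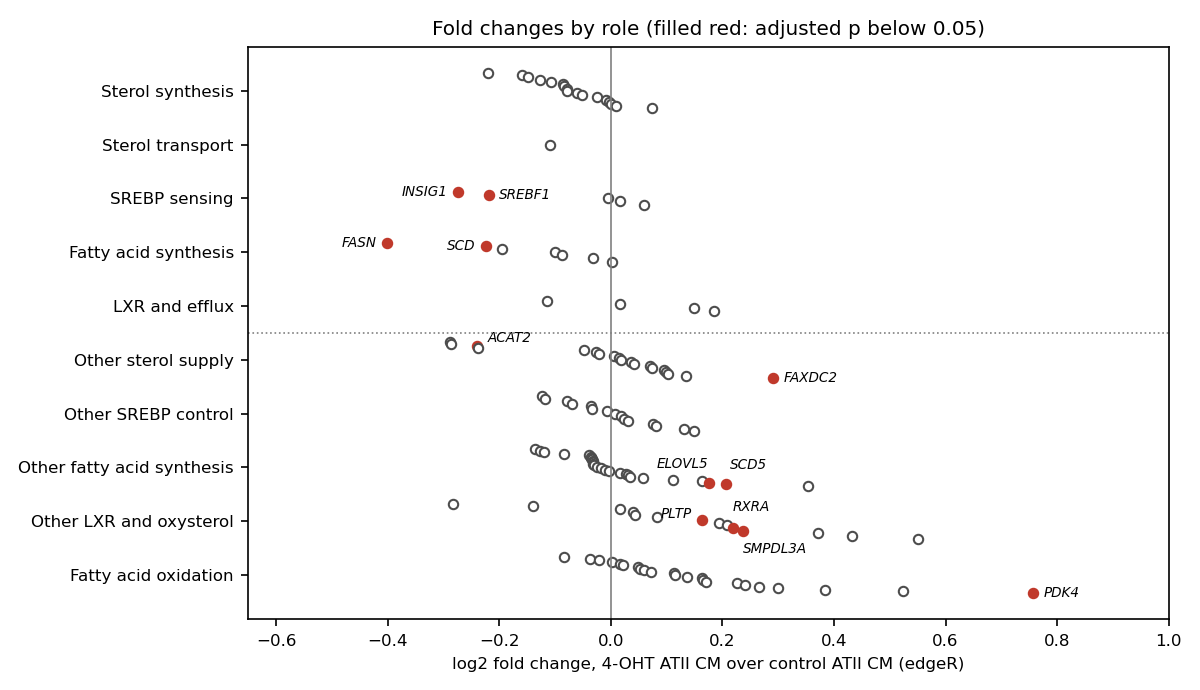
Log2 fold change (4-OHT ATII CM over control ATII CM, horizontal axis) of each tested gene, in rows by role, with the 34 genes above the dotted line and the other pathway genes below it. Filled red points are genes with an adjusted p below 0.05, 4 lower above the line, and 7 higher and 1 lower below it.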

How the data were processed

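RNA-Seq of polyA RNA was done on 6 libraries of MRC5 cells, grouped by their labels. Per the labels and the study's methods, the authors used Trim Galore for trimming, HISAT2 2.1.0 for mapping to GRCh38 and featureCounts 1.6.5 for counting per gene, and the deposited values are raw counts, with the length of each gene's merged exons beside them. The annotation release, the strand setting and the treatment of reads with several hits are not given in the sources used here, so that overlapping and antisense genes and near-identical copies can share or lose reads. Of 58721 lines, 45 identifiers listed a second time were summed, leaving 58676. Symbols came from GENCODE 44.

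The quasi-likelihood test of edgeR 4.0.16 (R 4.3.3) was applied to TMM-normalized counts of genes whose 6 libraries sum to 10 or more, in a model of group alone. Adjustment was by Benjamini-Hochberg over all 19072 genes, with a threshold of 0.05. CPM use TMM library sizes, normalization factors being 0.992 to 1.01. Standard errors and 95% intervals follow from the F statistic and the fold change. The 34 genes, the other pathway lists and the ratios were chosen with earlier results of these data known. Named genes are all 34 and every gene of the other lists past the threshold. Of the other lists, 7 genes were under 10 counts. DESeq2 1.42.0, limma-voom (limma 3.58.1), other normalizations and filters, a replicate block, an offset for GC content and length, thinning and leaving out each library were run as alternatives. Copies were searched with minimap2 2.31, requiring 95% identity over 50% of a transcript for other genes, and 98% over 90% for alternate contigs. Promoter windows were RefSeq GRCh38.p14. The tests were checked on simulated counts. No 2 libraries agreed within counting error, the ratio of chi-square to degrees of freedom within groups being 2.04 to 5.56.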

Additional observations from a re-analysis of the deposited data

How the results depend on the processing

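*FASN*, *SCD*, *SREBF1* and *INSIG1* passed the threshold, lower in 4-OHT ATII CM, in all 16 alternatives, with log2 fold changes of -0.43 to -0.37, -0.25 to -0.21, -0.24 to -0.18 and -0.31 to -0.21 and highest adjusted p values of 0.000463, 0.00499, 0.0270 and 0.0408. Of the other 30 genes, *STARD4* passed with the GC and length offset and *ABCA1* without control replicate 2, and the other 28 passed in none. Without control replicate 2, 1 LXR and efflux gene was called, beside 0 otherwise (leaving out each library, 0 to 1). Over all genes, leaving out each library gave 533 to 1530 calls (533 without 4-OHT replicate 2, 615 without 4-OHT replicate 3, 663 without control replicate 3 and 1530 without control replicate 2). In the other pathway lists it gave 4 to 11 calls beside 8, and with no filter on low counts there were 15, of which 12 were higher and 3 lower. *ELOVL5*, *RXRA* and *SMPDL3A* passed in all 16, *FAXDC2* in 15, *PLTP* in 13, *ACAT2* and *SCD5* in 10 and *PDK4* in 8. By DESeq2, *SCD5* (adjusted p = 0.0657) and *PDK4* (0.0620) were not called. Leaving out 1 library ended the call of *FAXDC2* (4-OHT replicate 2, adjusted p = 0.0542), of *PLTP* (control replicate 3 or 4-OHT replicate 2 or 3, 0.0911 to 0.131), of *ACAT2* (any but control replicate 3, 0.0520 to 0.139), of *SCD5* (any but control replicate 2, 0.0566 to 0.110) and of *PDK4* (any but replicate 2 of either group, 0.114 to 0.154). Of the genes not called, 13 changed sign in at least 1 alternative while not called. The causes were not tested.

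The labels number the replicates 1 to 3 in both groups. Deviations of libraries with the same number correlated at r = -0.01, -0.10 and -0.09, beside -0.06 to 0.16 for different numbers. These values cannot show whether libraries of the same number were prepared together. With the replicate block 985 genes were called (502 higher, 483 lower). Among the genes named, the block ended the call of *PDK4* (adjusted p = 0.0520) and no other. Few counts limit *ABCG1* and *HSD17B7*, and the spread between libraries limits *ACACA*, whose standard error of 0.40 at 411 counts was above that of *ABCG1*, 0.21 at 274 counts. The median of sterol synthesis ranged from -0.12 to -0.04 that of fatty acid synthesis from -0.16 to -0.08 and that of LXR and efflux from 0.01 to 0.15 over the alternatives.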
